A study of Mus musculus with 54 samples.

Results

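The distal convoluted tubule genes Slc12a3, Pvalb, Trpm6, Wnk1, Wnk4, Stk39, Klhl3 and Kl were followed across bulk RNA-seq and 10x Chromium libraries of kidney. They were taken as a list by name and are 8 of the 19290 genes listed in the 10x libraries and of the 32563 genes listed in the bulk libraries. The study asked how dissociation, storage and nucleus isolation change what is read from a kidney, and it held 54 libraries in 18 groups of 3. Male C57BL/6J mice of 19 weeks gave cell suspensions dissociated at 37 °C with the Miltenyi Multi Tissue Dissociation Kit 2 (warm) or on ice with a Bacillus licheniformis protease (cold). These suspensions were profiled fresh, after methanol fixation, after 6 weeks of cryopreservation, and as bulk RNA. Male Balb/c mice of 18 weeks gave cold-dissociated fresh cells, nuclei of flash-frozen kidneys (SN_FANS_3x500g, washed and spun 3 times at 500 g, then sorted on DAPI) and bulk RNA of intact kidneys. Female Balb/c mice of 15 weeks gave cold-dissociated cells, fresh and after 2 weeks of cryopreservation, bulk RNA of cold suspensions and of intact kidneys, and nuclei by 3 protocols, which were SN_FANS_3x500g, SN_FANS_1x2000g (DAPI sorted after a single spin at 2000 g) and SN_sucrose (a sucrose cushion with no sort). The labels name no transgene and no drug treatment, and the study's methods call the C57BL/6J males AFAPIL.1DEL C57BL/6J mice of a single litter, a name not explained in the sources used here. Chromium chemistry was version 2 for C57BL/6J and Balb/c males and version 3 for females, and bulk libraries were ribosome-depleted for males and poly(A)-selected for females. Between these 3 experiments, strain, sex, age, chemistry and batch cannot be told apart, so fold changes were tested within an experiment. The exception was a test of whether the change from cells to nuclei differed between the Balb/c experiments, where these factors cannot be told apart either.

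The distal convoluted tubule is the short segment after the thick ascending limb that reabsorbs sodium and chloride through the thiazide-sensitive cotransporter NCC, the product of Slc12a3. NCC is switched on by phosphorylation: the WNK kinases (Wnk1, Wnk4) activate the kinase SPAK (Stk39), which phosphorylates NCC, while KLHL3 is the adaptor that brings WNK kinases to a cullin ubiquitin ligase for degradation, and variants in several of these genes are known causes of inherited high or low blood pressure. The segment also takes up magnesium through TRPM6, its early part is rich in the calcium-binding protein parvalbumin (Pvalb), and the distal nephron carries klotho (Kl), the co-receptor for FGF23. In kidney, Wnk1 is transcribed both as the full kinase and as a shorter kidney-specific form without most of the kinase domain, and the counts used here, per gene and mostly at the 3′ end, do not tell them apart.

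In GRCm38 with the Ensembl annotation, Slc12a3 (ENSMUSG00000031766) lies at chr8:94329201-94366214, Pvalb (ENSMUSG00000005716) at chr15:78191114-78206400, Trpm6 (ENSMUSG00000024727) at chr19:18749983-18892511 and Wnk1 (ENSMUSG00000045962) at chr6:119923969-120038672. Wnk4 (ENSMUSG00000035112) lies at chr11:101260567-101277409, Stk39 (ENSMUSG00000027030) at chr2:68210445-68472268, Klhl3 (ENSMUSG00000014164) at chr13:58000228-58113592 and Kl (ENSMUSG00000058488) at chr5:150952607-150993817. The genes differ widely in the length from first to last base, from 15.3 kb for Pvalb and 16.8 kb for Wnk4, through 37.0 kb for Slc12a3 and 41.2 kb for Kl, to 113 kb for Klhl3, 115 kb for Wnk1, 143 kb for Trpm6 and 262 kb for Stk39. Exons make up 30.0% of the Slc12a3 span but 1.89% of the Stk39 span. Introns were counted in nuclei and not in cells. The promoters of the 3 genes with the highest share of UMIs in distal convoluted tubule-like barcodes (Slc12a3, Pvalb and Trpm6) are shown as examples of where transcription of such genes starts. Each runs from 250 bases before to 50 bases after the RefSeq start site on the gene's own strand (GRCm38.p6). Capitals mark matches on either strand to 2 motifs. TATAAA is the core promoter element of many tissue-restricted genes. GCCNNNGGC is the core site of TFAP2 factors, and Tfap2b is a marker of this segment.
Slc12a3 chr8:94328958-94329257, plus strand: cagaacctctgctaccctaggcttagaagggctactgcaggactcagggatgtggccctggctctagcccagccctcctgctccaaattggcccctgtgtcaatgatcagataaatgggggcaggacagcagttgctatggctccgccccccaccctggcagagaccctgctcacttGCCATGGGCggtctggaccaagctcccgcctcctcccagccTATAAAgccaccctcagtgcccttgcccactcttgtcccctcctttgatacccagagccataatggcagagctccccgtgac
Pvalb chr15:78206351-78206650, minus strand: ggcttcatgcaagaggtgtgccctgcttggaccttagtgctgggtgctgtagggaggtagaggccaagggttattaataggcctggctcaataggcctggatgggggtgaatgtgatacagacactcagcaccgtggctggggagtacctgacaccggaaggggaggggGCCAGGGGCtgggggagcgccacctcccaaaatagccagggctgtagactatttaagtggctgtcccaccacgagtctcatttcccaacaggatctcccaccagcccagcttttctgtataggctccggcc
Trpm6 chr19:18749480-18749779, plus strand: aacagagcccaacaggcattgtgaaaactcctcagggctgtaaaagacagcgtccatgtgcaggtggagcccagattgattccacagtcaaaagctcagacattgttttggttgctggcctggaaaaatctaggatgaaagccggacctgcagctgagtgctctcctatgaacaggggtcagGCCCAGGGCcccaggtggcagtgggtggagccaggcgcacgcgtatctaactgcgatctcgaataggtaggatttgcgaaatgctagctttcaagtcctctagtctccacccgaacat
The TFAP2 letters begin 73 bases before the start of Slc12a3, 81 before that of Pvalb and 68 before that of Trpm6, and TATAAA begins 32 bases before the start of Slc12a3. GCCNNNGGC was present in 7 of the 9 RefSeq promoters of the 8 genes, from 6 genes, and in 16.6% of all 32851 RefSeq promoters of this length. TATAAA was present in 1 of the 9 and in 13.6% of all. AGAACA, a single arm of the steroid receptor site, was present in 2 of the 9 (Kl and the second Pvalb promoter) and in 19.0% of all. GTTAAT, a single arm of the HNF1 site, was in none of the 9 and in 7.10% of all. The member promoters ranged from 52.3% to 80.0% GC against a median of 52.7% over all promoters. A match is a description, not a binding site.

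The 10x libraries held 983522 to 35170947 UMIs and 175959 barcodes in all, with a median of 343 to 3893.5 UMIs per barcode by library, and the bulk libraries held 2326998 to 31093949 assigned reads. The lowest median belonged to Balb/c male fresh cells replicate 3. Pairs of libraries shared at most 2.05% of the barcodes of the smaller library, with a median of 0.124% over 741 pairs. Levels are given as counts-per-million (CPM) in each library, with mitochondrial counts left out, in the order of replicates 1, 2 and 3, and as mean ± SD (n = 3) where summarised. The name distal convoluted tubule-like (DCT-like) was given to clusters by 12 markers. They were Tmem52b, Pgam2, Emx1, Abca13, Sgms2, Slc16a7, Tfap2b, Sall3, Cnnm2, Slc41a3, Kng2 and Wfdc15b. At least 3 had to pass, with a minimum score and margin. Clustering left out the 8 genes, so none of the 8 defined the class. A single cluster in each of the 5 sets clustered passed, on 8 to 11 of the 12 markers, and 6405 barcodes carried the name. Barcodes of clusters that took no class name stayed in the totals of all shares. They were 25.1% of Balb/c female fresh cells and 1.61% of their SN_FANS_3x500g nuclei. The authors kept genes seen in at least 10 barcodes, so a listed 0 leaves room for up to 9 barcodes. It does not show that the gene was absent. The deposited 10x tables also list up to 852 genes per library in 1 to 9 barcodes, so the minimum does not hold for every gene listed. Klhl3 was listed at 0 in 13 of 39 libraries and Trpm6 in 9 of 39, and a difference that rests on such zeros has no interpretable size. C57BL/6J 10x libraries could be tied to 3 animals by their names, but elsewhere the groups compared could not be matched by animal here, and p-values measure the spread between these libraries.

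Bulk levels were set side by side between genes per kilobase of exon, the union of exons over all annotated transcripts of a gene. This length was 9.33 kb for Kl, 11.1 kb for Slc12a3, 22.8 kb for Wnk1 and 4.15 kb for Wnk4. Which transcripts were expressed was not measured, so the order between genes is tied to this length. In cold-dissociated C57BL/6J suspensions, Kl stood highest at 143 CPM per kb, followed by Slc12a3 at 88.4, Wnk1 at 50.4 and Wnk4 at 39.5. The other genes were lower, with Pvalb at 10.5, Stk39 at 8.57, Klhl3 at 6.13 and Trpm6 at 4.79 CPM per kb. In cold-dissociated Balb/c female suspensions Kl was again highest at 134 CPM per kb, with Wnk4 at 114, Slc12a3 at 113 and Pvalb at 105, then Wnk1 at 38.3, Stk39 at 13.7, Klhl3 at 7.14 and Trpm6 at 3.73. The adaptor Klhl3 and the channel Trpm6 were the lowest per length in both experiments. Pvalb was at 10.5, 9.32 and 13.1 CPM in the C57BL/6J cold libraries, 107, 119 and 101 CPM in the Balb/c female cold libraries. In intact kidneys it was at 28.4, 37.4 and 30.1 CPM in Balb/c males and at 71.8 to 80.1 CPM in Balb/c females. Neither the suspensions nor the intact kidneys of different experiments overlapped, and strain, sex, age, RNA selection and batch cannot be told apart between them.

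**Figure D1:**
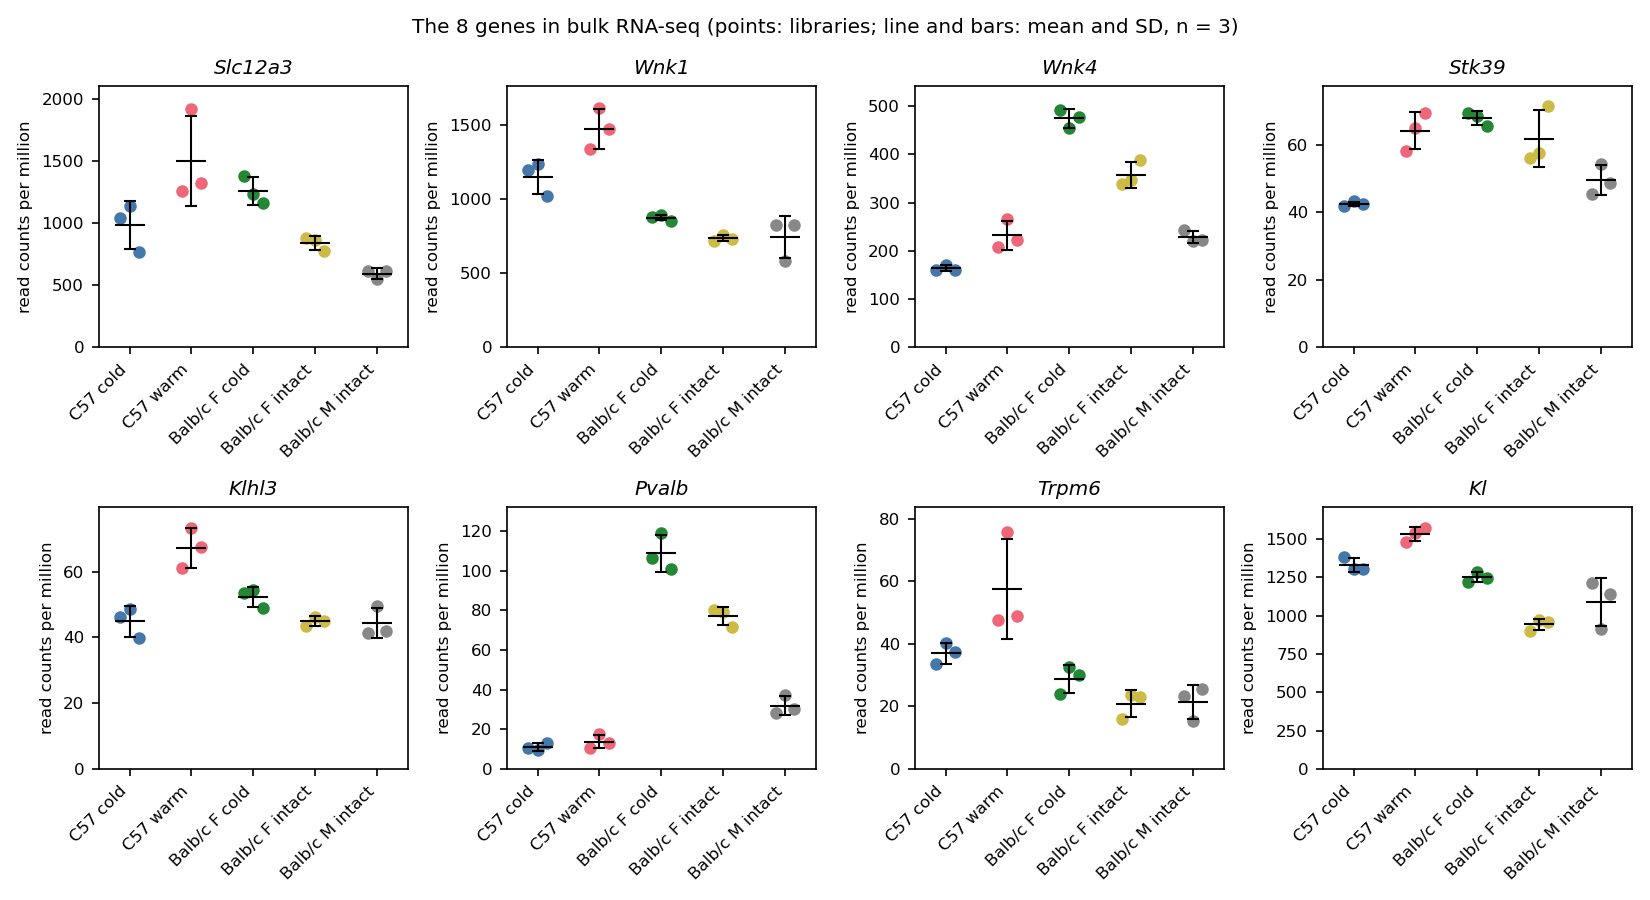
Level in CPM in bulk RNA-seq for the 8 genes, with 5 groups on the horizontal axis (C57 cold and warm suspensions, Balb/c female cold suspensions and intact kidneys, Balb/c male intact kidneys). Points are libraries, and the line and bars are the mean and SD of 3. All C57 warm libraries lie above all C57 cold ones for every gene but Pvalb. All Balb/c female intact libraries lie below all cold suspensions for every gene but Stk39. Among the separated genes, Kl did not pass the test in the first comparison, nor did Trpm6 and Klhl3 in the second. The share of all genes that separate in this way is not given.

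Dissociation temperature was first compared in bulk RNA of C57BL/6J suspensions. After warm dissociation 6 of the 8 genes rose and none fell, against 5.42% of 14102 genes tested that rose and 3.26% that fell (edgeR quasi-likelihood test, Benjamini-Hochberg adjusted p under 0.05). The transporter Slc12a3 was at 1045, 1136 and 767 CPM in the cold and 1262, 1916 and 1326 CPM in the warm libraries. Every warm library lay above every cold one, warm replicate 2 farthest, and the change was 1.51-fold (log2 fold change 0.59, SE 0.157, adjusted p = 0.0358). Its kinase Stk39 (SPAK) was at 41.8, 43.2 and 42.4 CPM cold and 58.3, 65.0 and 69.3 CPM warm, without overlap and with the smallest p of the 8 (log2 fold change 0.58, SE 0.0855, adjusted p = 0.00136). The WNK kinases also rose. Wnk4 was at 161, 171 and 160.3 CPM cold and 208, 267 and 224 warm (log2 fold change 0.48, SE 0.0862, adjusted p = 0.00435). Wnk1 was at 1197, 1233 and 1019 CPM cold and 1339, 1609 and 1468 warm (log2 fold change 0.34, SE 0.0892, adjusted p = 0.0357). Neither overlapped between the groups. The ubiquitin ligase adaptor Klhl3 was at 46.2, 48.8 and 39.7 CPM cold and 61.0, 73.2 and 67.5 warm (log2 fold change 0.56, SE 0.0937, adjusted p = 0.00286). The magnesium channel Trpm6 was at 33.5, 40.2 and 37.3 CPM cold and 47.6, 75.8 and 49.0 warm (log2 fold change 0.62, SE 0.159, adjusted p = 0.0322), again with all warm libraries above all cold ones. Pvalb was at 10.5, 9.32 and 13.1 CPM cold and 10.8, 17.4 and 13.1 warm, with overlap, and did not pass (log2 fold change 0.30, SE 0.196, adjusted p = 0.417). Kl was at 1383, 1305 and 1303 CPM cold and 1484, 1537 and 1573 warm, without overlap but by a small step (log2 fold change 0.18, SE 0.0703, adjusted p = 0.144). In bulk RNA fewer cells of a type and less RNA per cell cannot be told apart. Stk39, Wnk4 and Klhl3 kept their calls whichever library was left out, whereas only those 3 were called without cold replicate 1 or without cold replicate 3, and Slc12a3 also lost its call in DESeq2.

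Intact kidneys and cold suspensions of Balb/c females gave the other bulk comparison. In intact kidney 5 of the 8 genes were lower and none was higher, where 12.1% of 16538 genes tested were higher and 7.91% were lower. Slc12a3 was at 883, 863 and 774 CPM in intact kidney and 1379, 1238 and 1158 CPM in suspension, without overlap (log2 fold change -0.53, SE 0.0848, adjusted p = 0.00195). Kl was at 902, 971 and 958 CPM intact and 1222, 1286 and 1245 in suspension (log2 fold change -0.36, SE 0.0553, adjusted p = 0.00162). Pvalb was at 80.1, 79.2 and 71.8 CPM intact and 107, 119 and 101 in suspension (log2 fold change -0.45, SE 0.0749, adjusted p = 0.00249). All 3 suspensions exceeded all 3 intact kidneys for both. Wnk4 was at 338, 346 and 389 CPM intact and 493, 454 and 477 in suspension (log2 fold change -0.36, SE 0.0603, adjusted p = 0.00254). Wnk1 was at 719.5, 758 and 733 and 878, 889 and 854 CPM (log2 fold change -0.20, SE 0.0522, adjusted p = 0.0246). The Wnk1 call was lost on leaving out any of 5 of the 6 libraries. Trpm6 (log2 fold change -0.43, SE 0.15, adjusted p = 0.0773) and Klhl3 (log2 fold change -0.17, SE 0.0585, adjusted p = 0.0661) did not overlap between groups but did not pass, although DESeq2 and edgeR with no filter on low counts called Trpm6 lower. Stk39 overlapped, at 56.1, 57.7 and 71.5 CPM intact and 69.4, 68.6 and 65.5 in suspension (log2 fold change -0.09, SE 0.0801, adjusted p = 0.49). Intact Balb/c male kidneys, with no partner group in bulk, held Slc12a3 at 617, 547 and 618 CPM, Wnk4 at 244, 220.2 and 223 CPM and Kl at 1212, 914 and 1144 CPM.

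Along the tubule, the levels within each named class of barcodes described where each gene stood in the fresh 10x libraries. The DCT-like class was the highest of all named classes for Slc12a3 and Pvalb in each of the 4 fresh cell groups and 4 nucleus groups. In Balb/c female cells, Slc12a3 reached 5241 ± 284 CPM in DCT-like barcodes and 864 ± 134 CPM in the next class, connecting tubule-like. Pvalb reached 5247 ± 185 and 402 ± 57.6 CPM in the same classes. Trpm6 stood at 125 ± 35.6 CPM against 49.8 ± 13.2 in connecting tubule-like barcodes, and Klhl3 at 79.0 ± 7.06 against 32.6 ± 4.55 CPM. The libraries of the DCT-like class did not overlap those of the next class for any of these genes in Balb/c female cells. Klhl3 did overlap in both C57BL/6J fresh groups, at 64.2 ± 29.7 against 43.6 ± 9.88 CPM in the cold libraries. In Balb/c male cells Trpm6 overlapped and Klhl3 was listed at 0. Wnk4 was highest in DCT-like barcodes of Balb/c female cells at 660 ± 22.9 CPM, with thick ascending limb-like barcodes next at 337 ± 34.8 CPM. Wnk1 was at 4260 ± 148 CPM in DCT-like and 2649 ± 173 CPM in connecting tubule-like barcodes. The order of Wnk1 was less settled in C57BL/6J, where connecting tubule-like barcodes held 4313 ± 702 CPM and DCT-like ones 3892 ± 460 CPM in the cold libraries, with overlap, and the Wnk4 levels of DCT-like and thick ascending limb-like barcodes (546 ± 117 and 379 ± 38.8 CPM) also overlapped there. Kl peaked elsewhere. It was higher in connecting tubule-like than in DCT-like barcodes, at 2129 ± 136 against 875 ± 187 CPM in Balb/c female cells, and the same class led in all 8 groups, with overlap in Balb/c male cells alone. Stk39 led in principal-like barcodes of both Balb/c cell groups and in DCT-like barcodes of the other 6 groups, by small steps, at 187 ± 5.79 CPM in principal-like and 162 ± 13.9 CPM in DCT-like barcodes of Balb/c female cells, and at 997 ± 56.8 CPM in DCT-like and 829 ± 52.1 CPM in thick ascending limb-like nuclei.

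**Figure D2:**
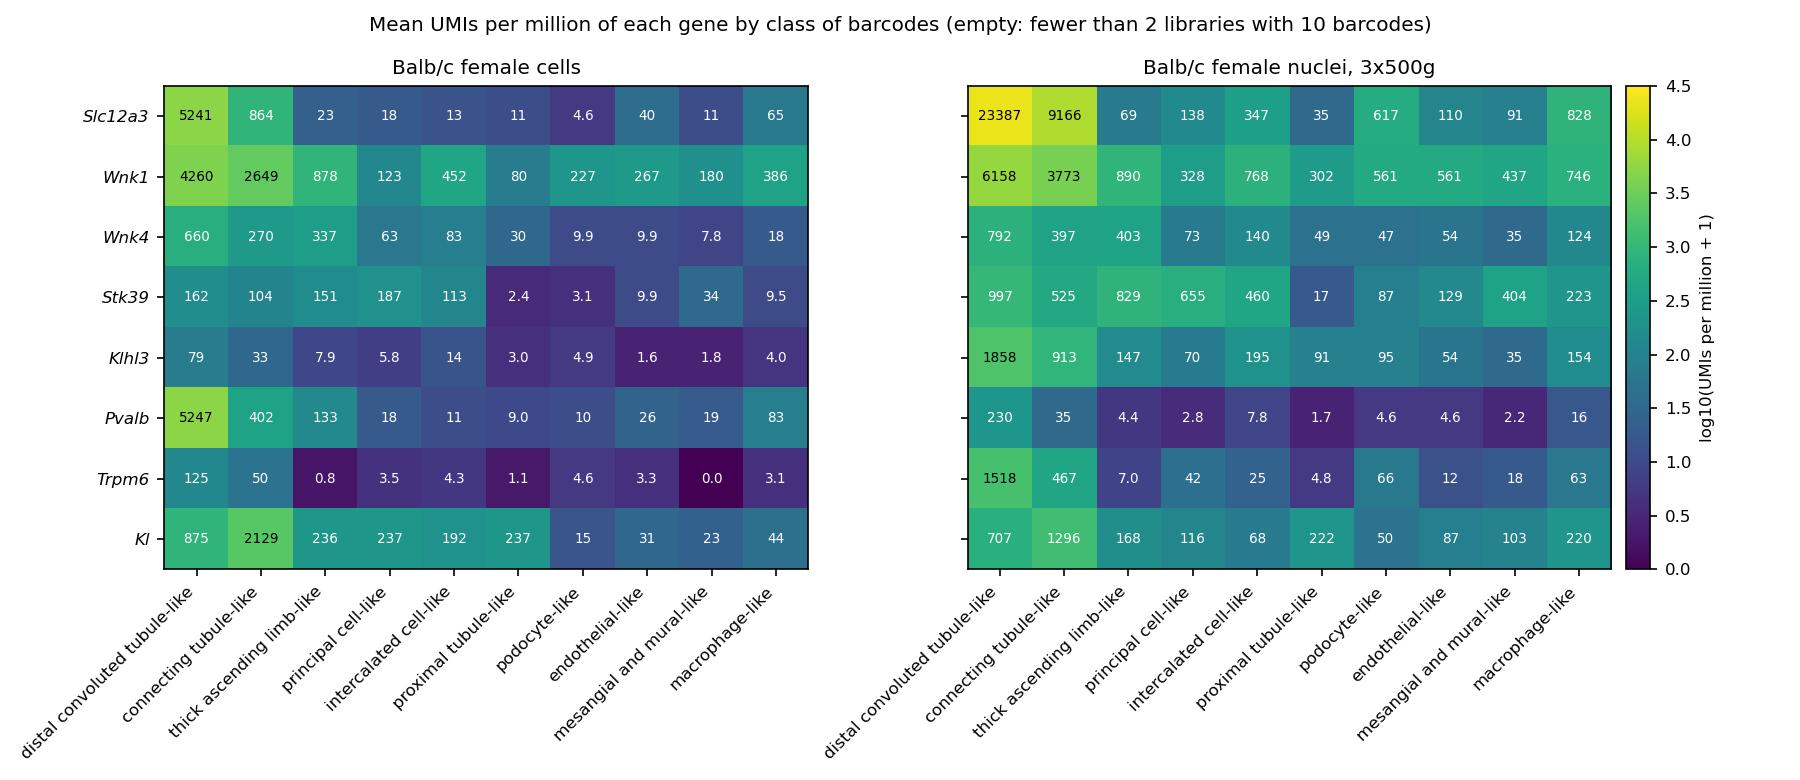
Mean level of each of the 8 genes, in CPM, by class of barcode in Balb/c female fresh cells and SN_FANS_3x500g nuclei; the colour scale is logarithmic and the number in each cell is the mean over 3 libraries. Slc12a3 and Pvalb fill the DCT-like column most (5241 and 5247 CPM in cells), Kl peaks in connecting tubule-like barcodes, and in nuclei Slc12a3 rises to 23387 CPM while Pvalb is at 230 CPM.

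The share of a gene's UMIs that lay in DCT-like barcodes ordered the 8 genes by how far each belongs to this segment. In C57BL/6J cold fresh cells it was 79.9% for Pvalb, 72.7% for Slc12a3 and 60.8% for Trpm6, then 41.8% for Klhl3, 31.3% for Wnk1, 26.5% for Wnk4, 19.5% for Stk39 and 11.6% for Kl, in means over 3 libraries. In Balb/c female cells the shares were 79.3% for Pvalb, 71.8% for Slc12a3, 48.3% for Trpm6, 35.9% for Klhl3, 31.2% for Wnk1, 27.3% for Wnk4, 16.0% for Stk39 and 9.80% for Kl. In Balb/c female SN_FANS_3x500g nuclei they were 71.0%, 65.2%, 66.9%, 39.1%, 32.8%, 23.9%, 17.8% and 12.6% in the same order. Most Slc12a3, Pvalb and Trpm6 UMIs in these C57BL/6J cold fresh cells and these female nuclei thus came from DCT-like barcodes. Most Kl, Stk39 and Wnk4 UMIs came from other barcodes in all 3 groups. For Trpm6 the share was 47.9% in Balb/c male nuclei and 26.3% in cold methanol-fixed C57BL/6J cells. The DCT-like barcodes themselves were few, at 1.92 ± 0.312% of barcodes in C57BL/6J cold fresh libraries, 2.93 ± 0.322% in Balb/c female cells and 5.37 ± 0.0750% in their SN_FANS_3x500g nuclei. The first of these shares rested on the clustering, since at resolution 1 in place of 2 it was 4.92 ± 0.197%, and that of warm fresh libraries 5.10% in place of 1.58%. The Balb/c female groups did not overlap, with an exact two-sided permutation p of 0.1, the smallest that 3 libraries against 3 allow.

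Shares of barcodes with at least 1 UMI were compared after thinning each barcode to 500 UMIs. In C57BL/6J cold fresh cells, 88.3% of DCT-like and 0.787% of proximal tubule-like barcodes had a Slc12a3 UMI, against 93.9% and 2.15% before thinning, at median depths of 1319 to 2104 and 937.5 to 1301 non-mitochondrial UMIs by library; 209 of 219 and 3892 of 4597 barcodes were deep enough to be thinned. Pvalb was seen in 45.5% of DCT-like and 0.292% of proximal tubule-like barcodes, and Wnk1 in 81.0% and 3.27%. Proximal tubule-like cells are not known to make NCC or parvalbumin. Likely doublets stayed in these shares, and whether free RNA, doublets or another source gave these UMIs was not tested. Kl was seen in 34.8% of DCT-like and 13.6% of proximal tubule-like barcodes, and its proximal share lay far above those of Slc12a3 and Pvalb. In Balb/c female nuclei, thinned Slc12a3 shares were 99.8% and 2.01% and thinned Klhl3 shares 58.5% and 4.61%, while Pvalb was seen in 10.2% of DCT-like and 0.0879% of proximal tubule-like nuclei. In cells of the same experiment the thinned Pvalb shares were 90.7% and 0.438%.

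**Figure D3:**
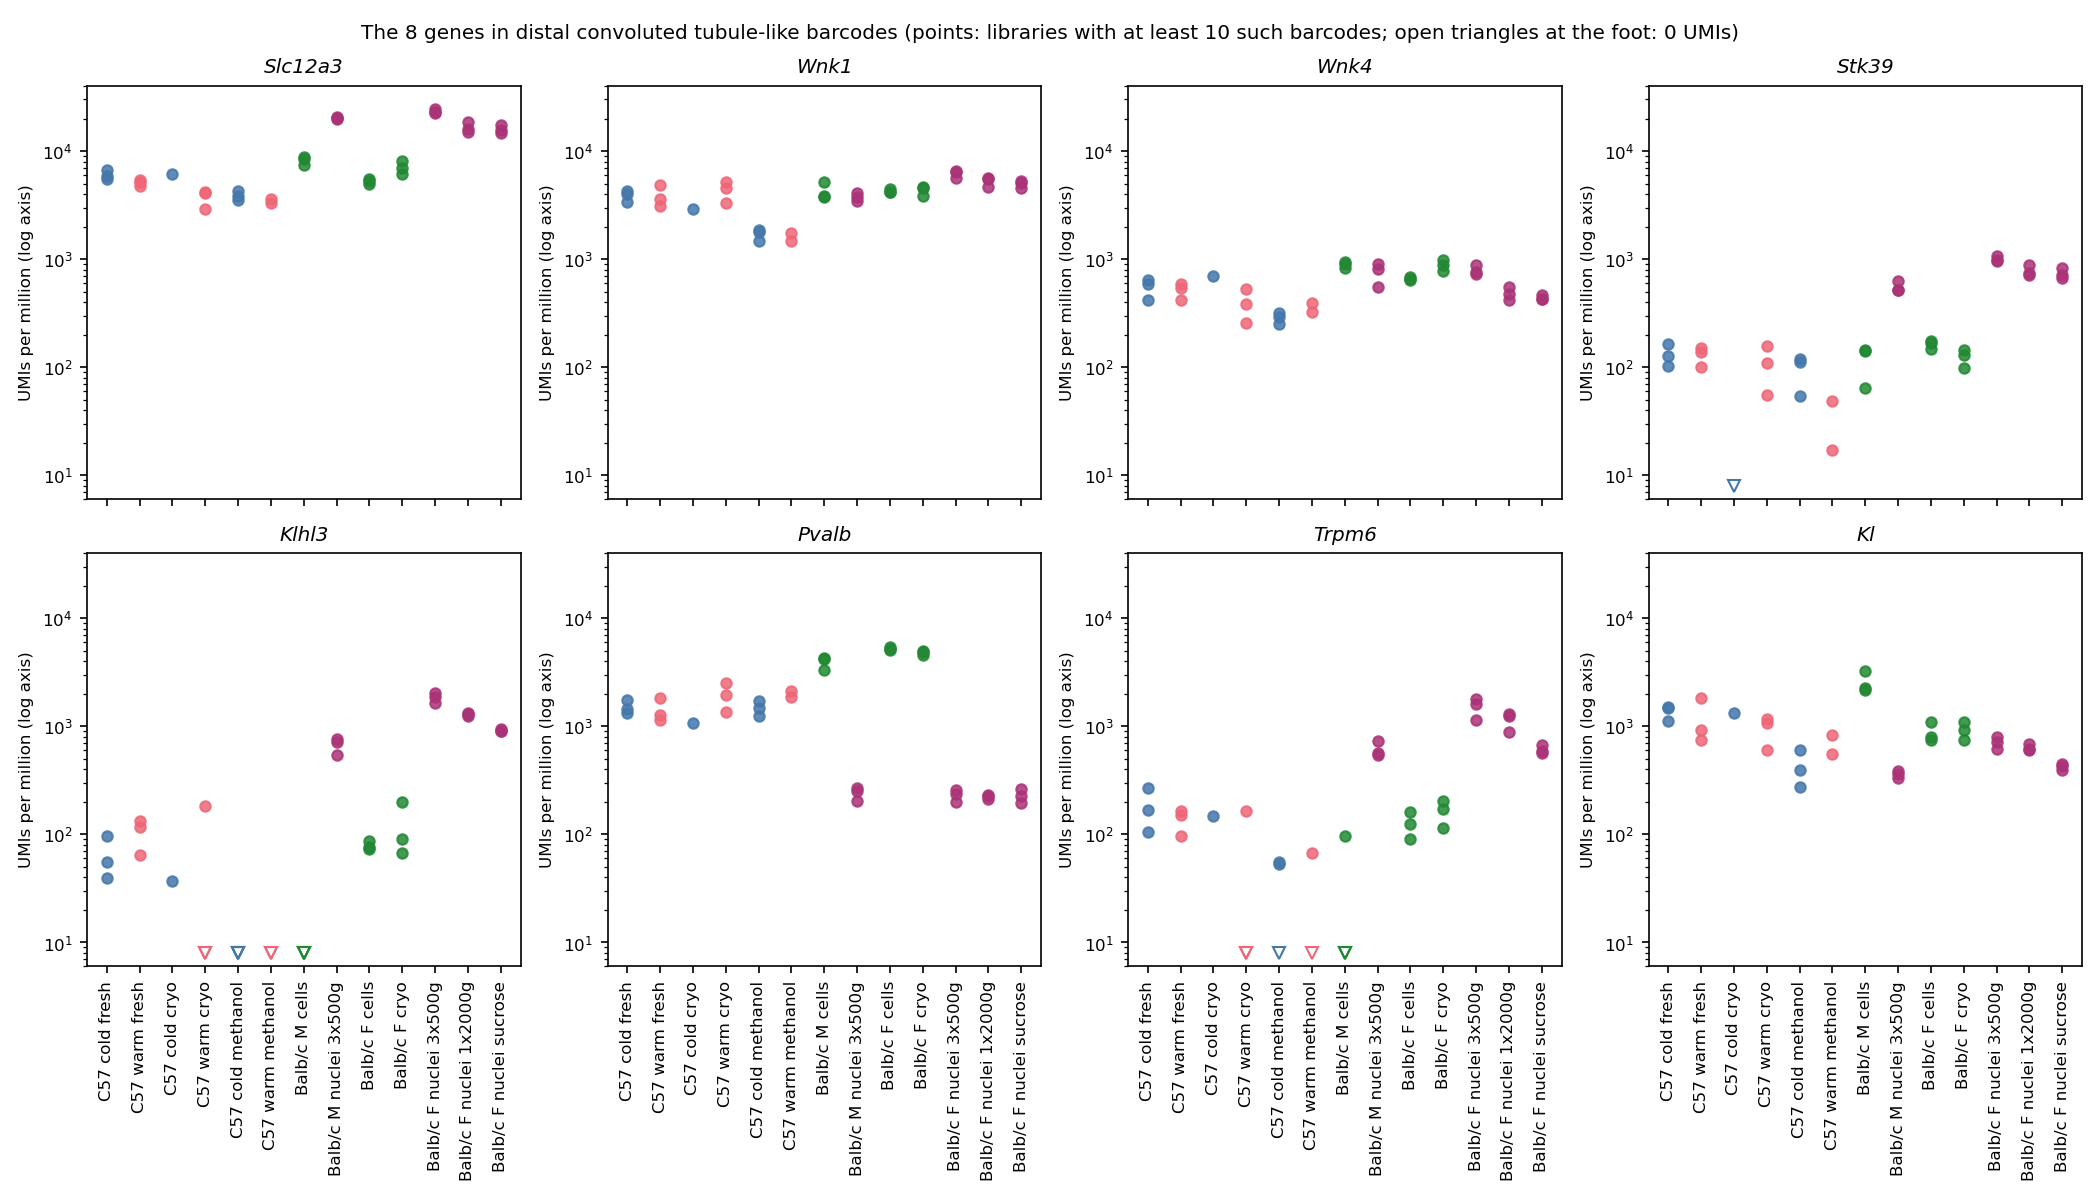
Level of the 8 genes in DCT-like barcodes, in CPM on a log axis, for the libraries of 13 groups of 10x libraries with at least 10 such barcodes. Points are libraries and triangles at the foot are libraries with 0 UMIs of the gene; nuclei stand above cells for Slc12a3, Trpm6, Stk39 and Klhl3 and below them for Pvalb.

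Warm and cold dissociation of fresh C57BL/6J cells were compared in the sums of all barcodes and in DCT-like barcodes alone. None of the 8 genes passed in the library sums, where 7.86% of 12061 genes rose and 7.07% fell, and none in the DCT-like sums, where 0.101% of 1990 genes rose and 0.201% fell (edgeR). At an unadjusted p under 0.05 the counts were 1 (Klhl3) and 1 (Slc12a3), and DESeq2 called none of the 8 in either. Slc12a3 was at 266, 204 and 189 CPM in the cold and 160.1, 246 and 133 CPM in the warm libraries, with overlap (log2 fold change -0.13, SE 0.228, adjusted p = 0.739). In DCT-like barcodes it was at 5838, 6654 and 5543 CPM cold and 5190.4, 5403 and 4757 CPM warm, every warm library below every cold one (log2 fold change -0.30, SE 0.115, adjusted p = 0.458). Klhl3, at 5.10, 4.32 and 3.02 CPM cold and 7.40, 8.25 and 4.78 CPM warm, had the largest estimate in the sums (log2 fold change 0.91, SE 0.297, adjusted p = 0.0699). Wnk1 was at 359, 353 and 289 CPM cold and 207, 356 and 198 CPM warm, with warm replicate 2 at the level of the cold libraries and the other two below all of them. Kl followed the same pattern at 319.7, 295 and 348 CPM cold and 191, 321 and 209 CPM warm. Without warm replicate 2, Wnk1 and Kl were called lower, so this library decided both. With library totals in place of TMM factors, which moved the higher share of called genes from 52.6% to 39.1%, none of the 8 passed either. Klhl3 was called higher (0.92, adjusted p = 0.0367) when only genes above 0 in every library were tested. No test was made between bulk and 10x values.

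Cryopreservation was compared with fresh cells for each C57BL/6J dissociation and for Balb/c females. The proximal tubule-like share of barcodes was 39.5% in cold and 45.3% in warm fresh C57BL/6J libraries and 0.134% and 0.0270% after cryopreservation. In Balb/c females it was 33.1% fresh and 4.29% cryopreserved. Barcodes with no class name were 25.9% of cold and 26.8% of warm fresh C57BL/6J libraries and 6.87% and 6.04% after cryopreservation. In Balb/c females they were 25.1% fresh and 11.1% cryopreserved, so class shares are set side by side over unequal unnamed parts. The connecting tubule-like share was 2.34% fresh and 2.64% cryopreserved in cold C57BL/6J, 2.89% and 1.47% in warm C57BL/6J, and 9.04% and 3.04% in Balb/c females. The thick ascending limb-like share was 3.52% and 1.83%, 7.42% and 13.1%, and 7.31% and 3.99% in the same order. The DCT-like share went from 1.92 ± 0.312% to 0.960 ± 0.537% in cold and went from 1.58 ± 0.349% to 3.15 ± 0.237% in warm C57BL/6J libraries, in both without overlap (exact two-sided permutation p = 0.1, the smallest that 3 against 3 allow). At clustering resolution 1 it was 4.92% and 3.87% in cold and 5.10% and 5.56% in warm libraries, and the groups overlapped. The part of these differences in the changes below was not tested. Kl was lower after cryopreservation in all 3 comparisons, of which the cold and warm C57BL/6J ones come from a single experiment. It was at 319.7, 295 and 348 CPM fresh and 34.5, 114 and 58.5 CPM cryopreserved in cold C57BL/6J (log2 fold change -2.35, SE 0.371, adjusted p = 0.00132). It was at 191, 321 and 209 and 91.1, 116 and 138 CPM in warm (log2 fold change -1.41, SE 0.249, adjusted p = 0.00202), and at 412, 402 and 356 CPM fresh and 169.5, 256 and 177 CPM cryopreserved in Balb/c females (log2 fold change -1.36, SE 0.163, adjusted p = 0.000161). No cryopreserved library reached any fresh one in these 3 comparisons. Pvalb fell in cold C57BL/6J, from 67.8, 36.7 and 49.0 to 19.5, 19.3 and 12.6 CPM (log2 fold change -1.73, SE 0.285, adjusted p = 0.00164). In Balb/c females it fell from 293, 279 and 298 to 177, 224 and 242 CPM (log2 fold change -0.85, SE 0.112, adjusted p = 0.000277). In warm C57BL/6J it was at 32.9, 75.1 and 32.6 CPM fresh and 83.8, 129.8 and 51.5 CPM cryopreserved, with overlap (log2 fold change 0.53, SE 0.447, adjusted p = 0.345).

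In cold C57BL/6J, Slc12a3 was at 266, 204 and 189 CPM fresh and 77.4, 176 and 95.6 CPM cryopreserved, without overlap (log2 fold change -1.07, SE 0.303, adjusted p = 0.0203). The cold counts were 3 of 8 genes lower and none higher, where 28.9% of 11392 genes fell and 21.8% rose, and 3 of the 6 genes listed above 0 in every library. Library totals in place of TMM moved the median of all genes by 0.457 and the higher share of calls from 43.0% to 67.3%, and Slc12a3 then did not pass (log2 fold change -0.63, adjusted p = 0.12). With only genes above 0 in every library tested, Wnk4 was called lower too (-0.90, adjusted p = 0.0299). Cold cryopreserved replicate 2 stood above the other two for 7 of the 8 genes, with Slc12a3 at 176 CPM against 77.4 and 95.6, and it held 24 DCT-like barcodes against 9 and 4. Without it all 8 genes were called lower, with Trpm6 and Klhl3 listed at 0 in both cryopreserved libraries left. The share of all genes called lower in that fit is not given here, so this count shows only that the result rested on replicate 2. In warm C57BL/6J, Stk39 was at 13.1, 14.9 and 18.1 CPM fresh and 42.3, 26.2 and 30.5 CPM cryopreserved, without overlap (log2 fold change 0.74, SE 0.208, adjusted p = 0.0173). Thus 1 gene rose and 1 fell, where 25.8% of 10778 genes rose and 33.9% fell. Without warm cryopreserved replicate 1 none of the 8 genes was called higher and 2 were called lower, so the call of Stk39 rested on this library. Under library totals (median of all genes moved by 0.420, higher share of calls from 43.3% to 62.5%) Wnk1 and Wnk4 were called higher too, and with only genes above 0 in every library tested Wnk1 was (0.57, adjusted p = 0.027). With animals as a block Pvalb (0.58, adjusted p = 0.042) and Wnk1 (0.61, adjusted p = 0.0176) were called higher while Stk39 was not (adjusted p = 0.0521). In Balb/c females 5 genes were lower and none higher, where 29.1% of 11947 genes fell and 28.9% rose. Besides Kl and Pvalb these were Slc12a3 (log2 fold change -0.27, SE 0.0863, adjusted p = 0.0262), Wnk1 (log2 fold change -0.34, SE 0.118, adjusted p = 0.035) and Wnk4 (log2 fold change -0.39, SE 0.12, adjusted p = 0.0213). The sign of Slc12a3 and Wnk1 and the call of Wnk4 rested on the scaling. The mean Slc12a3 level was 352 ± 20.8 CPM cryopreserved and 320 ± 12.1 CPM fresh. Library totals moved the median of all genes by 0.360 and the higher share of calls from 49.9% to 76.8%. The log2 fold changes were then 0.09 for Slc12a3, 0.02 for Wnk1 and -0.03 for Wnk4, and Stk39 was called higher at 0.27. Kl and Pvalb remained lower under both scalings.

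Within DCT-like barcodes none of the 8 genes passed after cryopreservation in edgeR, nor in DESeq2, with 2 in warm C57BL/6J and 3 in Balb/c females at an unadjusted p under 0.05. Other settings made calls in warm C57BL/6J. With animals as a block Pvalb was called higher (log2 fold change 0.51, adjusted p = 0.0363), and at clustering resolution 1 Pvalb was called higher and Kl lower. With no filter on low counts Slc12a3 was called lower. Cold C57BL/6J could not be tested, with 9, 24 and 4 DCT-like barcodes in the cryopreserved libraries. In warm C57BL/6J, where 3.13% of 1087 genes rose and 2.3% fell, Stk39 and Klhl3 were too low to test. Slc12a3 was at 5190.4, 5403 and 4757 CPM fresh and 4187, 2903 and 4085 CPM cryopreserved, without overlap (log2 fold change -0.38, SE 0.173, adjusted p = 0.269). In Balb/c females, where 0.124% of 4835 genes rose and 0.31% fell (28.6% of calls higher, 11.4% under library totals), none of 8 passed. Slc12a3 was at 5527, 4959 and 5237 CPM fresh and 8121, 7035 and 6193 CPM cryopreserved (log2 fold change 0.37, SE 0.123, adjusted p = 0.199). Kl, which fell in the sums of all barcodes, was at 793, 1088 and 743 CPM and 1098, 741 and 921 CPM in them, with overlap (log2 fold change -0.01, SE 0.159, adjusted p = 0.978). Pvalb was at 5444, 5079 and 5219 CPM fresh and 4624, 5026 and 4927 CPM cryopreserved, without overlap and short of the threshold (log2 fold change -0.19, SE 0.111, adjusted p = 0.556). The DCT-like share of Balb/c females was 2.93 ± 0.322% fresh and 2.22 ± 0.472% cryopreserved, with overlap. The difference between the effects in warm and cold C57BL/6J was called for none of the 8 genes (2.07% of 11749 genes higher, 4.25% lower; 3 at an unadjusted p under 0.05), with Pvalb nearest (log2 fold change 2.23, SE 0.623, adjusted p = 0.0556); DESeq2 called it for Pvalb, Wnk1 and Stk39, and edgeR over genes above 0 in every library for Pvalb (adjusted p = 0.0146) and Stk39 (adjusted p = 0.0323).

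Wnk1 was lower after methanol fixation in both dissociations. The DCT-like share was lower in the same libraries, at 1.30 ± 0.173% fixed against 1.92% fresh in cold and 0.715 ± 0.186% against 1.58% in warm ones, in both without overlap (exact two-sided permutation p = 0.1). At clustering resolution 1 the shares were 5.05% and 4.92% in cold, with overlap, and 4.10% and 5.10% in warm libraries, without. The part of these shares in the changes below was not tested. In cold C57BL/6J libraries Wnk1 was at 359, 353 and 289 CPM fresh and 178, 205 and 161 CPM fixed (log2 fold change -0.72, SE 0.114, adjusted p = 0.00307). In warm ones it was at 207, 356 and 198 and 88.1, 119 and 102 CPM (log2 fold change -1.23, SE 0.26, adjusted p = 0.0207). No fixed library reached a fresh one. Kl fell in the cold libraries, from 319.7, 295 and 348 to 217, 188 and 221 CPM (log2 fold change -0.46, SE 0.12, adjusted p = 0.0206). Klhl3 was listed at 0 in all 6 fixed libraries, and at 3.02 to 8.25 CPM in the fresh ones. With Klhl3 counted, 3 genes were lower in cold (13.6% of 11910 genes lower, 14.3% higher) and 2 in warm libraries (9.77% of 10826 lower, 7.53% higher), and none was higher; of the 6 genes above 0 in every library, 2 and 1 were lower. With animals as a block Klhl3 was called in neither (adjusted p = 0.057 cold and 0.151 warm), and Wnk4 was called lower in cold libraries (-0.36, adjusted p = 0.0466), as it was with only genes above 0 in every library tested (-0.38, adjusted p = 0.0435). Slc12a3 was at 160.1, 246 and 133 CPM fresh and 77.3, 126 and 115 CPM fixed in warm libraries, without overlap (log2 fold change -0.70, SE 0.273, adjusted p = 0.131), and was called when animals were a block (adjusted p = 0.00449) or only genes above 0 in every library were tested (adjusted p = 0.0384). Pvalb was at 67.8, 36.7 and 49.0 CPM fresh and 49.3, 64.6 and 71.7 CPM fixed in cold libraries, with overlap (log2 fold change 0.48, SE 0.234, adjusted p = 0.166).

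Within DCT-like barcodes of cold libraries 5 genes were lower, 4 of them listed above 0 in every library, where 13.7% of 1765 genes fell and 11.6% rose. Wnk1 fell from 4289, 3999 and 3388 to 1788, 1862 and 1474 CPM (log2 fold change -1.30, SE 0.132, adjusted p = 2.5e-07). Kl fell from 1482, 1129 and 1519 to 275, 393 and 607 CPM (log2 fold change -1.72, SE 0.197, adjusted p = 1.12e-06). Wnk4 fell from 636, 588 and 414 to 314, 290.1 and 250.1 CPM (log2 fold change -1.07, SE 0.203, adjusted p = 0.000487). No fixed library reached a fresh one for these 3 genes. Slc12a3 fell from 5838, 6654 and 5543 to 4302, 3827 and 3537 CPM (log2 fold change -0.75, SE 0.127, adjusted p = 0.00016). Pvalb was at 1751, 1328 and 1447 and 1238, 1469 and 1706 CPM (log2 fold change -0.12, SE 0.143, adjusted p = 0.568). In these barcodes the summed level of 12 proximal tubule markers was 1423 to 1579 CPM fresh and 4439 to 5171 CPM fixed, and its part in these drops was not tested. In warm libraries, with 2 fixed libraries of at least 10 DCT-like barcodes, Wnk1 (log2 fold change -1.41, SE 0.206, adjusted p = 4.23e-05) and Slc12a3 (log2 fold change -0.69, SE 0.149, adjusted p = 0.00429) were lower, besides the zeros of Klhl3, where 4.65% of 1721 genes fell and 3.2% rose; with animals as a block the count was 5, Trpm6, Wnk4 (-0.88) and Kl (-1.39) being called. Kl was also called lower with RLE factors, no filter on low counts, doublets removed and clustering resolution 1, the last of which called Wnk4 and Stk39 too. Library totals moved the higher share of calls from 45.9% to 80.9% in cold and from 40.7% to 85.02% in warm DCT-like sums, and the median of all genes by 0.369 and 0.371. Under them Slc12a3 in warm DCT-like sums was not called (-0.32, adjusted p = 0.135) and Pvalb was called higher (0.73). The difference between the warm and cold effects was called for no gene at all (0% higher and 0% lower of 12001 in edgeR; none of the 8 reached an unadjusted p under 0.05 and DESeq2 called none of the 8).

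Nuclei gave the widest contrasts of the 8 genes. In Balb/c females, 4 genes were higher in SN_FANS_3x500g nuclei than in cells and 2 were lower, where 43.8% of 13762 genes were higher and 41% were lower and the median of all genes was 0.10. Slc12a3 was at 329.6, 306 and 323 CPM in cells and 1779, 1795 and 1734 CPM in nuclei, 4.08-fold higher (log2 fold change 2.03, SE 0.0961, adjusted p = 1.1e-07). Klhl3 was at 10.1, 8.87 and 10.2 CPM in cells and 256, 202 and 245 CPM in nuclei, 17.9-fold higher (log2 fold change 4.16, SE 0.14, adjusted p = 1.53e-08). Trpm6 was at 9.58, 12.2 and 11.9 and 124, 81.9 and 132 CPM, 7.36-fold higher (log2 fold change 2.88, SE 0.229, adjusted p = 3.41e-06). Stk39 was at 51.4, 41.4 and 43.1 and 298, 285 and 251 CPM, 4.53-fold higher (log2 fold change 2.18, SE 0.109, adjusted p = 1.53e-07). Every nucleus library exceeded every cell library for these 4 genes. Pvalb went the other way, from 293, 279 and 298 CPM in cells to 17.1, 16.9 and 13.9 CPM in nuclei, 24.6-fold lower (log2 fold change -4.62, SE 0.111, adjusted p = 4.4e-09). Kl was at 412, 402 and 356 and 285, 273 and 272 CPM (log2 fold change -0.94, SE 0.111, adjusted p = 4.88e-05). Wnk1 (log2 fold change 0.19, SE 0.115, adjusted p = 0.156) and Wnk4 (log2 fold change 0.18, SE 0.12, adjusted p = 0.188) did not pass, though neither overlapped. Both were called higher, at 0.63 and 0.61, under library totals, which moved the median of all genes by 0.441.

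DCT-like barcodes gave calls in the same direction for 4 genes higher and 2 lower, on their own sums and background (40.8% of 9306 genes higher, 37.3% lower). In both Balb/c experiments cells and nuclei were clustered as separate sets, so the class was named separately in each. Slc12a3 was at 5527, 4959 and 5237 CPM in DCT-like cells and 23050.3, 24433 and 22678 CPM in DCT-like nuclei, 3.61-fold higher (log2 fold change 1.85, SE 0.123, adjusted p = 4.16e-12). Pvalb was at 5444, 5079 and 5219 CPM in cells, as high as Slc12a3, and 234, 256 and 199.7 CPM in nuclei, 28.2-fold lower (log2 fold change -4.82, SE 0.143, adjusted p = 1.89e-18). Klhl3 was at 73.4, 76.7 and 86.9 CPM in cells and 2059, 1647 and 1869 CPM in nuclei (log2 fold change 4.25, SE 0.158, adjusted p = 9.89e-17). None of these 3 overlapped between cells and nuclei. Trpm6 was 9.67-fold (log2 fold change 3.27, SE 0.195, adjusted p = 6.04e-13) and Stk39 4.95-fold higher (log2 fold change 2.31, SE 0.125, adjusted p = 1.12e-13). Kl was at 793, 1088 and 743 CPM in cells and 793, 614 and 715 CPM in nuclei, with overlap (log2 fold change -0.62, SE 0.149, adjusted p = 0.000714). The share of DCT-like barcodes was 2.93% in cells and 5.37% in nuclei, and the fold of Slc12a3 was 4.08 over all barcodes and 3.61 within the class. Library totals moved the median of all genes here by 0.303, and Wnk1 (0.52, adjusted p = 0.000367) and Wnk4 (0.26 in place of -0.04) were then called higher. Wnk1 was also called with no filter on low counts.

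In Balb/c males the median of all genes was itself 0.84 higher in nuclei on the log2 scale. Of 14027 genes tested, 53.6% were higher and 27.6% lower. The DCT-like share was 2.86 ± 0.870% in cells and 5.49 ± 0.400% in nuclei, without overlap. Slc12a3 was at 229.9, 239.7 and 404 CPM in cells and 1337, 1486 and 1315 CPM in nuclei, 4.25-fold higher (log2 fold change 2.09, SE 0.22, adjusted p = 5.44e-05). Stk39 was at 27.4, 31.1 and 21.3 and 113, 159.8 and 119.5 CPM, 4.26-fold higher (log2 fold change 2.09, SE 0.203, adjusted p = 3.44e-05). Pvalb was at 111, 149 and 155 CPM in cells and 24.4, 19.7 and 15.5 CPM in nuclei, 7.81-fold lower (log2 fold change -2.97, SE 0.208, adjusted p = 5.67e-06). Kl was at 384, 501 and 676 and 194, 233 and 259.9 CPM, 2.55-fold lower (log2 fold change -1.35, SE 0.209, adjusted p = 0.000458). No nucleus library overlapped a cell library for these 4 genes. Klhl3 was listed at 0 in all 3 cell libraries and at 58.4, 87.3 and 68.6 CPM in nuclei. Trpm6 was listed at 0 in 2 cell libraries, at 5.05 CPM in the other and at 48.7, 65.1 and 54.1 CPM in nuclei. Wnk4 (log2 fold change 0.68, SE 0.22, adjusted p = 0.0207) and Wnk1 (log2 fold change 0.52, SE 0.164, adjusted p = 0.0177) were called higher, below the median gene. They lost the call when 4 and 3 of the 6 libraries, respectively, were left out in turn. The count was thus 6 higher and 2 lower, or 4 and 2 among the 6 genes above 0 in every library; library totals moved the median of all genes by 0.174.

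The DCT-like sums of Balb/c males had a median of 0.62 over all genes, with 40.8% of 4188 genes higher and 27.3% lower. At clustering resolution 1 no cluster of Balb/c male cells was named DCT-like. The male cell class, its share of barcodes and these sums thus exist at resolution 2 only. Slc12a3 was at 8896, 7359 and 8525 CPM in cells and 19634, 20271 and 20472 CPM in nuclei (log2 fold change 1.45, SE 0.27, adjusted p = 4.49e-06). Pvalb was at 4304, 4223 and 3363 CPM in cells and 255, 267 and 206 CPM in nuclei (log2 fold change -3.87, SE 0.244, adjusted p = 2.33e-22). Kl was at 2280.2, 3231 and 2195 and 362, 388 and 334 CPM (log2 fold change -2.72, SE 0.236, adjusted p = 3.9e-16). Cells and nuclei did not overlap for these genes. Stk39 was at 64.2, 144 and 140.1 CPM in cells and 515, 624 and 517 CPM in nuclei (log2 fold change 2.27, SE 0.339, adjusted p = 3.41e-08), and 4 genes in all were called higher, Trpm6 and Klhl3 over zeros, and 2 lower. The summed level of the 12 proximal tubule markers in these barcodes was 1349 to 2195 CPM in cells and 4982 to 7856 CPM in nuclei. The 8 connecting tubule markers summed to 12705 to 18285 CPM in cells, above the 12 DCT markers at 11198 to 12168 CPM. In nuclei these sums were 2893 to 3794 and 9627 to 10915 CPM. The class held a median of 384 UMIs per barcode in cells and 706 in nuclei. The part of these marker levels and depths in the values was not tested. With each library left out in turn, Slc12a3 ranged from 1.48 to 2.47, Stk39 from 2.07 to 3.34, Pvalb from -3.91 to -2.79 and Kl from -2.81 to -1.67. Wnk1 was at 3822, 5151 and 3784 CPM in cells and 3779, 4047 and 3434 CPM in nuclei, and Wnk4 at 899, 832 and 934 CPM in cells and 551, 897 and 816 CPM in nuclei. Both overlapped and did not pass (log2 fold changes -0.06 and -0.09). They became called higher at 0.86 to 1.00 and 0.74 to 1.11 without any 1 nucleus library, so no direction can be read for them. RLE and DESeq2 scalings moved the median of all genes by 0.325 and 0.332.

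**Figure D4:**
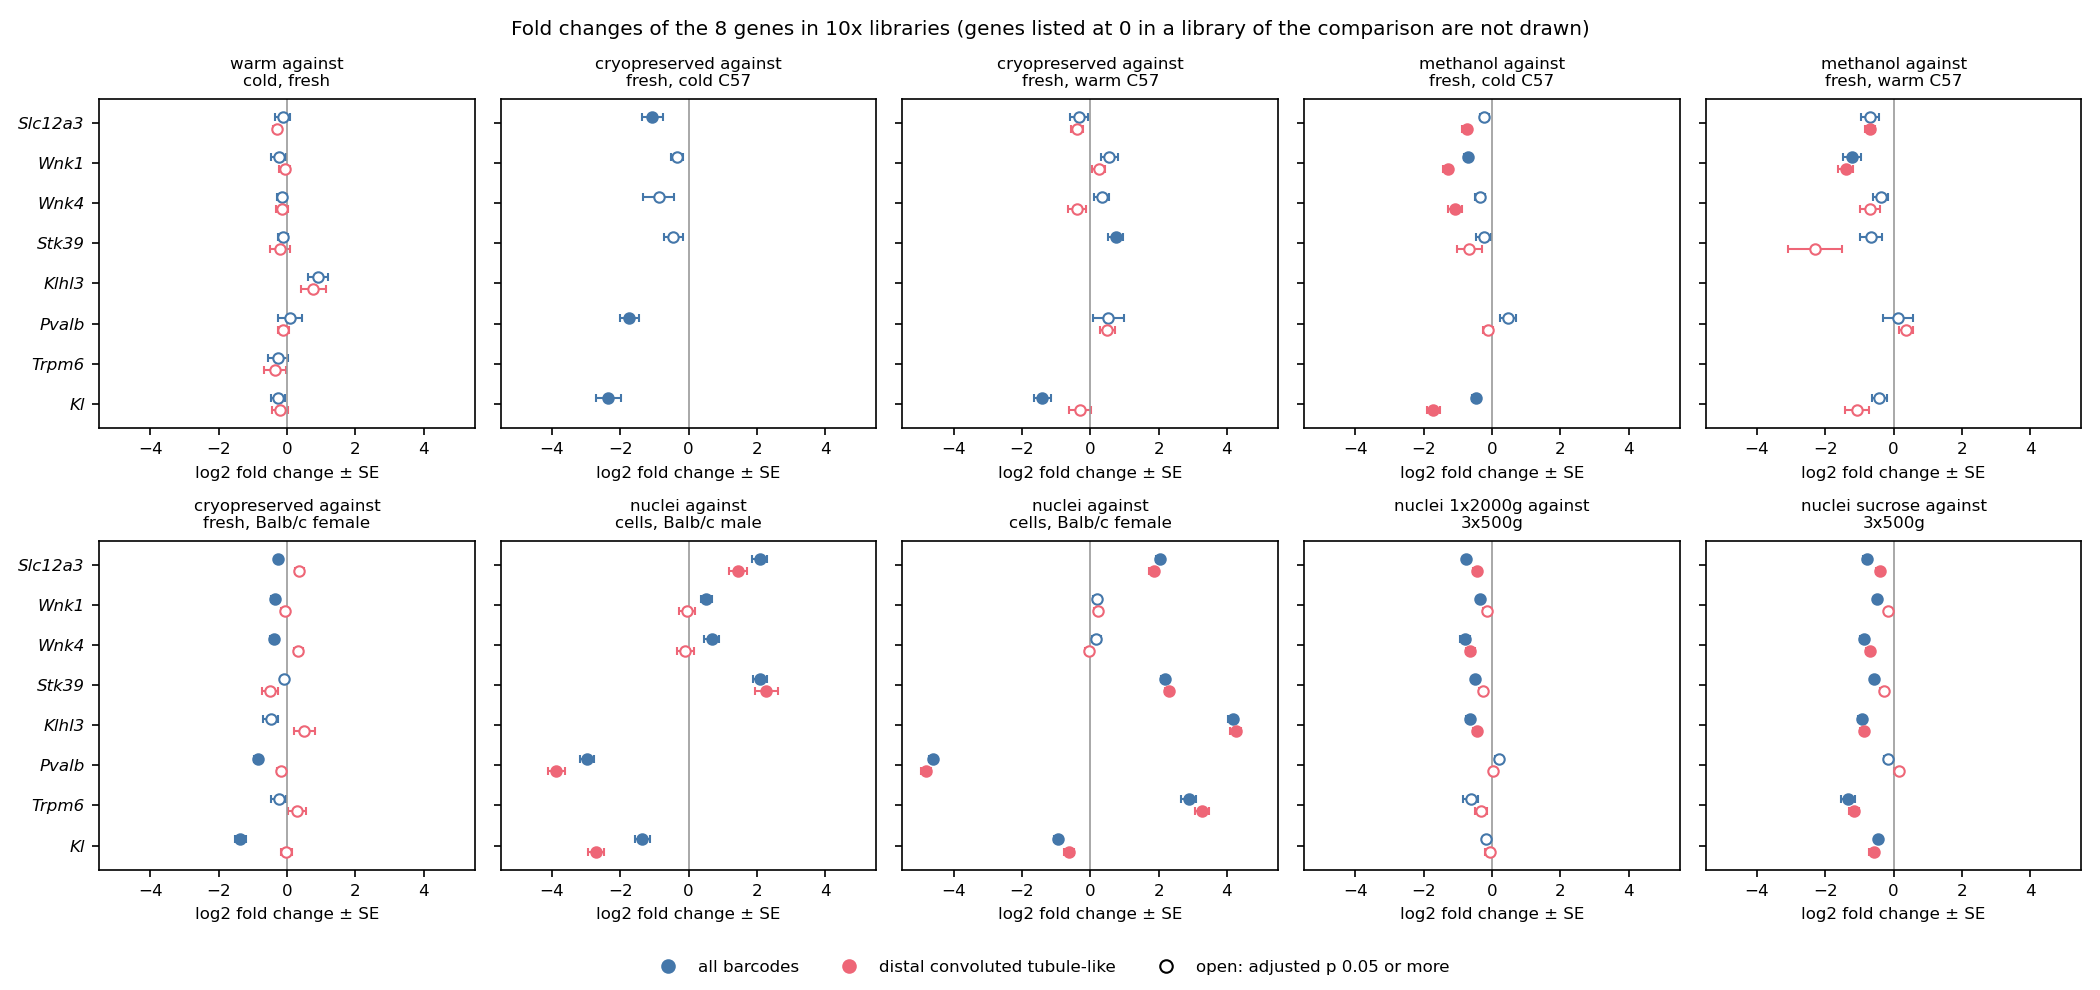
Log2 fold change ± SE of each of the 8 genes in 10 comparisons of 10x libraries, for all barcodes (blue) and DCT-like barcodes (red), with filled points at adjusted p under 0.05 and open points at or above it; genes listed at 0 in a library are not drawn. The widest values lie in the nuclei against cells panels, where Klhl3 reaches 4.16 and Pvalb -4.62 in Balb/c females, and storage panels stay within a narrower span.

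The change from cells to nuclei ran with the length of the gene. Over all genes tested in Balb/c females, the median log2 fold change by quartile of gene span was -1.79, -0.58, 0.42 and 1.88 from shortest to longest, and in males -0.64, 0.22, 0.97 and 2.55. Intronic reads were counted for nuclei and not for cells, and the part of this counting in the values below was not tested. The 4 longest of the 8 genes, Stk39, Trpm6, Wnk1 and Klhl3, lie in the longest quartile, Slc12a3 and Kl in the third, and Pvalb and Wnk4 in the second. Against the median of its own quartile in females, Klhl3 at 4.16 and Trpm6 at 2.88 lay above 1.88 and Stk39 at 2.18 near it, while Wnk1 at 0.19 lay below the lower quartile bound of 0.93. Slc12a3 at 2.03 lay above the upper quartile bound of 1.35 and Kl at -0.94 below the lower bound of -0.60. These genes have nearly equal spans. Pvalb at -4.62 lay below the lower bound of -1.80 and Wnk4 at 0.18 between the bounds of -1.80 and 0.52.

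**Figure D5:**
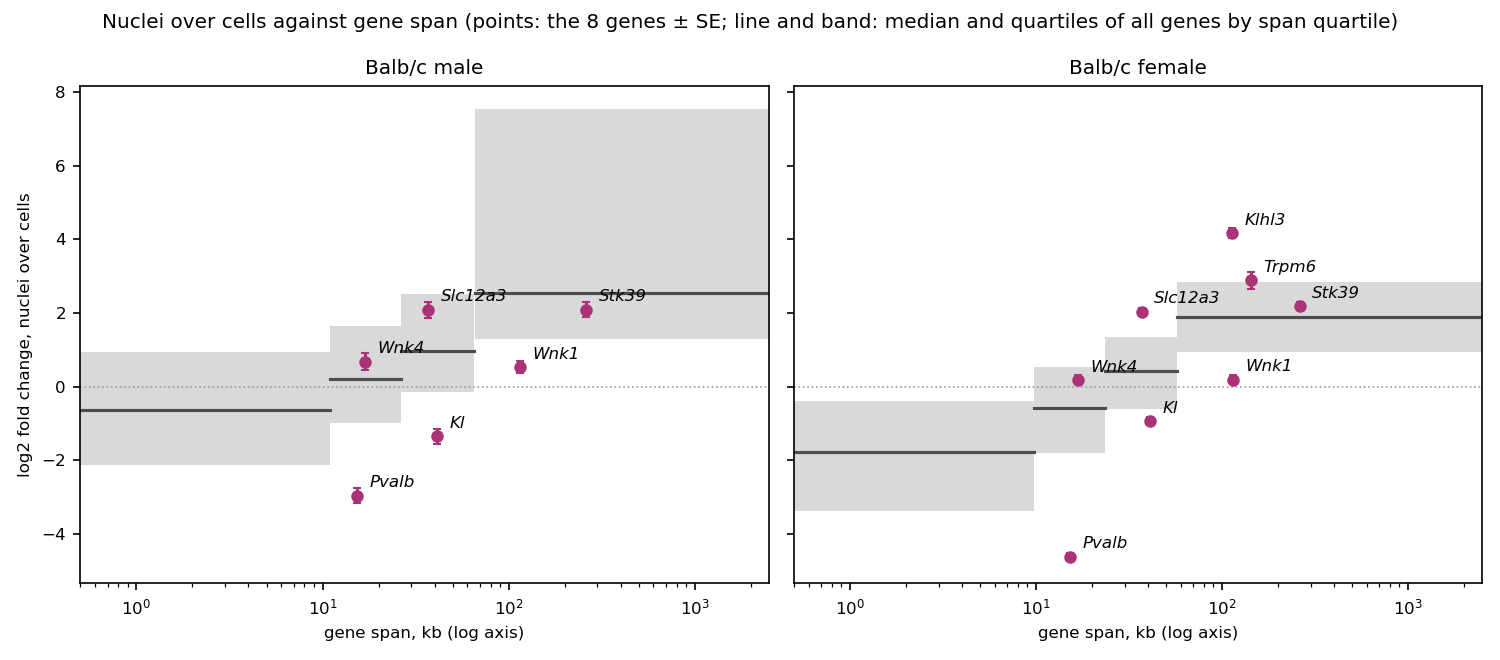
Log2 fold change of nuclei over cells (vertical axis) against gene span in kb on a log axis, for Balb/c males (left) and females (right); points are the 8 genes ± SE, without Klhl3 and Trpm6 in males, and the line and band are the median and quartiles of all genes in each quartile of span. Pvalb lies below the band in both panels, Slc12a3 above it in females, and Wnk1 below it in both.

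The effect of nuclei against cells differed between the Balb/c experiments for Pvalb (female minus male: log2 fold change -1.76, SE 0.247, adjusted p = 9.46e-05), with the larger fall in females. Over all genes 47.1% of 13430 had a difference called lower and 7.44% higher, the median difference being -0.75, so a lower value was common. RLE factors moved the higher share of calls from 13.6% to 34.0% and the median by 0.427, DESeq2 to 34.2% and by 0.432, and Pvalb was called lower under each. Klhl3 was also called lower, on the listed zeros of male cells. Slc12a3 (log2 fold change -0.18, SE 0.238, adjusted p = 0.54), Stk39 (log2 fold change -0.02, SE 0.245, adjusted p = 0.951) and Kl (log2 fold change 0.30, SE 0.254, adjusted p = 0.339) were not called; Kl was called higher at 0.72 with RLE factors and with DESeq2, and at 0.61 over genes above 0 in every library.

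The nucleus protocols were compared in Balb/c females, both against the same 3 SN_FANS_3x500g libraries. With SN_FANS_1x2000g, 5 genes were lower and none higher (15.4% of 17449 genes lower, 19.5% higher), and with SN_sucrose 7 were lower and none higher (21.4% of 17304 lower, 23.9% higher). Slc12a3 was at 1779, 1795 and 1734 CPM in SN_FANS_3x500g and 1005, 1221 and 953 CPM in SN_FANS_1x2000g (log2 fold change -0.76, SE 0.0957, adjusted p = 0.00173). It was at 935, 942 and 1203 CPM in SN_sucrose (log2 fold change -0.79, SE 0.105, adjusted p = 0.00111). The regulators fell with it, Wnk4 from 186, 153 and 153 CPM to 108, 100.3 and 79.8 (log2 fold change -0.79, SE 0.144, adjusted p = 0.00661), and to 95.4, 82.2 and 96.1 CPM (log2 fold change -0.86, SE 0.114, adjusted p = 0.00114). Klhl3 went from 256, 202 and 245 CPM to 157, 149 and 146 (log2 fold change -0.66, SE 0.117, adjusted p = 0.00604) and 124, 123 and 126 CPM (log2 fold change -0.93, SE 0.113, adjusted p = 0.00087). Neither of the other protocols overlapped SN_FANS_3x500g for these 3 genes. Stk39 was also lower in SN_FANS_1x2000g (log2 fold change -0.49, SE 0.109, adjusted p = 0.0135) and in SN_sucrose (log2 fold change -0.57, SE 0.0894, adjusted p = 0.00203). So was Wnk1 (log2 fold change -0.35, SE 0.0807, adjusted p = 0.0147, then log2 fold change -0.48, SE 0.095, adjusted p = 0.00506). Trpm6 was at 124, 81.9 and 132 CPM in SN_FANS_3x500g and 80.7, 62.0 and 79.4 in SN_FANS_1x2000g (log2 fold change -0.62, SE 0.21, adjusted p = 0.0544). It was called lower there with library totals (-0.60, adjusted p = 0.0432), over genes above 0 in every library (adjusted p = 0.0448) and by DESeq2. It was at 40.8, 42.8 and 51.9 in SN_sucrose (log2 fold change -1.33, SE 0.201, adjusted p = 0.00178). Kl was called lower with SN_sucrose (log2 fold change -0.47, SE 0.0649, adjusted p = 0.00125). With SN_FANS_1x2000g it was not called in edgeR (log2 fold change -0.16, SE 0.066, adjusted p = 0.0981), although DESeq2 called it lower. Pvalb was at 17.1, 16.9 and 13.9 CPM in SN_FANS_3x500g, at 17.0, 18.6 and 19.8 CPM in SN_FANS_1x2000g and at 15.2, 14.3 and 13.4 CPM in SN_sucrose, with the first protocol overlapping both others, and passed in neither. The DCT-like share was 5.37 ± 0.0750%, 4.52 ± 0.356% and 4.16 ± 0.368% in the 3 protocols. In the same order the thick ascending limb-like share was 17.8%, 13.6% and 13.8%. The connecting tubule-like share was 5.75%, 5.40% and 6.03%, and the proximal tubule-like share 42.1%, 42.7% and 42.1%. The summed level of the 12 DCT markers was 2584 to 2770, 1951 to 2458 and 1797 to 2058 CPM in the 3 protocols. The markers that named the class were lower in the same libraries, and the part of these markers and shares in the result was not tested.

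Within DCT-like nuclei the genes that passed with SN_FANS_1x2000g were Wnk4 (log2 fold change -0.64, SE 0.13, adjusted p = 0.00514), Klhl3 (log2 fold change -0.44, SE 0.121, adjusted p = 0.029) and Slc12a3 (log2 fold change -0.43, SE 0.114, adjusted p = 0.0241), 3 of 8 lower, where 3.98% of 9977 genes were lower and 9.49% higher; leaving out libraries in turn gave 1 to 4. In these nuclei the summed proximal tubule markers were at 533 to 703 CPM in SN_FANS_3x500g, 1801 to 2580 CPM in SN_FANS_1x2000g and 798 to 1028 CPM in SN_sucrose, and their part was not tested. The higher share of calls was 70.5%, or 51.5% under library totals, which also called Stk39 lower (-0.35, adjusted p = 0.0372), and 81.2% in DESeq2. With SN_sucrose 5 of 8 were lower, where 9.97% of 9678 genes were lower and 11.8% higher. They were Trpm6 at 1627, 1152 and 1776 CPM in SN_FANS_3x500g and 565, 592 and 667 CPM in SN_sucrose (log2 fold change -1.17, SE 0.149, adjusted p = 6.54e-05), Klhl3 (log2 fold change -0.86, SE 0.117, adjusted p = 0.000126), Wnk4 (log2 fold change -0.69, SE 0.113, adjusted p = 0.000495), Kl (log2 fold change -0.58, SE 0.123, adjusted p = 0.00324) and Slc12a3 (log2 fold change -0.39, SE 0.115, adjusted p = 0.0212). The Trpm6 libraries of both protocols did not overlap. Library totals moved the higher share of calls from 54.1% to 27.4% and the median of all genes by -0.16. They also called Wnk1 (-0.31, adjusted p = 0.0175) and Stk39 (-0.45, adjusted p = 0.00359) lower, which made 7 of 8 as in the library sums. Stk39 was called as well with RLE factors, no filter on low counts, doublets removed and clustering resolution 1. Slc12a3 in DCT-like nuclei was at 23050.3, 24433 and 22678, 15861, 18419.8 and 15069.8 and 15638, 14619 and 17569 CPM in SN_FANS_3x500g, SN_FANS_1x2000g and SN_sucrose.

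The other genes of the pathway, 39 in number, were counted from lists: 13 of the WNK kinase cascade, 8 of basolateral transport, 10 of magnesium handling, 3 FGF23 receptors and 5 cation-chloride cotransporters. In bulk warm against cold, 10 of 38 tested rose and none fell, where 5.42% and 3.26% of all genes did, and the highest was Nr3c2, the mineralocorticoid receptor (log2 fold change 0.80). In intact kidney 2 of 38 were higher, Slc12a2, the cotransporter NKCC1 (0.55), and Fgfr3 (0.33), and 3 were lower, among them the potassium channel Kcnj10 (-0.34) and Pcbd1, a cofactor of HNF1 factors (-0.19), where 12.1% of all genes were higher and 7.91% lower. After cryopreservation 4 rose and 16 fell of 36 in cold C57BL/6J, 11 and 13 of 36 in warm, and 9 and 17 of 36 in Balb/c females. The shares over all genes were 21.8% and 28.9%, 25.8% and 33.9%, and 28.9% and 29.1%. Sgk1, the aldosterone-induced kinase, rose in each (1.72, 1.74 and 1.19), and Fxyd2, a subunit of the sodium pump, fell in cold C57BL/6J (-3.18) and in Balb/c females (-2.11). After methanol 4 rose and 4 fell of 36 in cold and 3 and 4 of 35 in warm libraries, with Trpm7, the relative of Trpm6, lower in both (-0.74 and -1.13). Over all genes 14.3% rose and 13.6% fell in cold and 7.53% and 9.77% in warm libraries. In fresh warm against cold cells 4 rose and 3 fell of 36, where 7.86% and 7.07% of all genes did.

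Between nuclei and cells, 20 of 36 of these genes were higher and 14 lower in Balb/c females, where 43.8% and 41% of all genes were. In DCT-like barcodes 14 of 31 were higher and 14 lower, where 40.8% and 37.3% of all genes were. There Nr3c2 (5.02), the ubiquitin ligase Nedd4l (3.63) and the growth factor receptor Egfr (3.13) were highest, and the phosphatase subunit Ppp1ca (-4.52), Fxyd2 (-4.40) and Pcbd1 (-4.24) lowest. By list, 6 of 9 WNK cascade genes were higher and 2 lower in DCT-like nuclei, 6 of 9 magnesium genes were higher and 3 lower, and 7 of 8 basolateral transport genes were lower and none higher. Cnnm2 and Slc41a3 of the magnesium list were also markers that named the DCT-like class. Slc12a1 of the cotransporter list was a thick ascending limb marker. Counts that include these genes in DCT-like barcodes are thus not independent of the naming. In Balb/c males 18 of 38 were higher and 14 lower in all barcodes and 9 and 9 of 26 in DCT-like barcodes, where 6 of 8 basolateral transport genes were lower. Of all genes, 53.6% were higher and 27.6% lower in all barcodes of the males and 40.8% and 27.3% in DCT-like barcodes. Against SN_FANS_3x500g, 7 of 37 were higher and 8 lower in SN_FANS_1x2000g and 5 and 15 of 37 in SN_sucrose, and in DCT-like nuclei 2 and 3 of 33 and 1 and 12 of 31. All genes gave 19.5% and 15.4% for SN_FANS_1x2000g, 23.9% and 21.4% for SN_sucrose, and in DCT-like nuclei 9.49% and 3.98%, and 11.8% and 9.97%. In DCT-like cells after storage, 1 of 11 was lower after warm cryopreservation, 5 of 14 after cold and 4 of 15 after warm methanol, with 1 higher (Fxyd2, 0.42), where 2.3%, 13.7% and 4.65% of all genes were lower. None of 23 passed in either direction in cryopreserved Balb/c females, where 0.124% of all genes rose and 0.31% fell. None of 18 passed between warm and cold fresh DCT-like cells, where 0.101% rose and 0.201% fell. A median or count over these lists carries no test.

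The genes whose level ran closest to that of Slc12a3 over 49 pairs of class and fresh 10x group were counted among 12809 genes, by Pearson's r of log2 CPM. Outside the 8 they were Cwh43 (0.839), Abca13 (0.832), Sall3 (0.826), Sgms2 (0.793) and 4930461G14Rik (0.787), of which Abca13, Sall3 and Sgms2 were markers used to name the class. Among the 8, Wnk1 stood at 0.859, Pvalb at 0.808, Trpm6 at 0.794, Kl at 0.699, Wnk4 at 0.688, Klhl3 at 0.557 and Stk39 at 0.506. These pairs share libraries, depth and cell preparation, so the values describe the pattern and carry no p.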

How the data were processed

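Mouse kidney was profiled by 10x Chromium and bulk RNA-seq, and the deposited tables hold raw counts, which the authors made with Cell Ranger 2.1.1 (mm10-2.1.0) and EmptyDrops for 10x and with STAR 2.6.1a (GRCm38.84) and featureCounts for bulk. The authors counted exonic reads for cells, and exonic and intronic reads for nuclei, kept genes seen in at least 10 barcodes, and removed mitochondrial genes from nuclei. Whether bulk counting used strand is not given in the sources used here. Likely doublets, scored by their nearness to artificial pairs, stayed in the values reported and were removed in an alternative for DCT-like shares and sums. Mitochondrial counts were left out. Each of 5 sets of libraries was clustered without the 8 genes (2000 variable genes, 30 components, 20 neighbours, Leiden resolution 2, or 1 as the alternative; leidenalg 0.10.2, scikit-learn 1.9.0, Python 3.11.15). Counts were summed per library, over all barcodes and over DCT-like barcodes (libraries with at least 10), and tested with edgeR 4.0.16 (R 4.3.3; TMM, quasi-likelihood F test, Benjamini-Hochberg adjustment over all genes tested). Class levels carry no test. Alternatives were DESeq2 1.42.0, RLE factors, library totals, other filters, a replicate block and each library left out. Counts of the 8 genes with a library left out, or at an unadjusted p under 0.05, stand without the share over all genes. They describe how settled a call was and are not set against a background. On simulated data, with changes of 1 and 2 on the log2 scale, the fit recovered 81.8% and 100% in bulk warm against cold (13916 genes), with 10.4% false calls. False calls were 7.18% in female cryopreservation (11944 genes), 6.59% in female nuclei (13657 genes), and in DCT-like sums 5.17% for female nuclei (9015 genes) and 5.88% for fresh warm against cold (1845 genes). At a log2 change of 1 these fits recovered 94%, 79.4%, 69.1% and 68.1%, in this order. Each simulated set had 91 to 100 genes changed at each size, in both directions, and all others unchanged. In the data far more genes were called, such as 43.8% higher and 41% lower in female nuclei. The simulated rates of recovery and false calls do not cover that case, nor the choice of scaling in it. The pairing by animal, read from the names in C57BL/6J 10x headers, gave correlations of deviations of 0.237, 0.235 and 0.247 in cold methanol, 0.109, 0.195 and 0.089 in warm methanol, and at most 0.176 elsewhere. The 8 genes were given as a list, further pathway genes came from 5 lists, and 3 pathway genes per direction were named by size, of which some are not reported here. The members and lists were chosen with earlier results of these data known. Intervals and tests cover no error beyond the spread between these libraries.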

Additional observations from a re-analysis of the deposited data

Results flagged for a closer look

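The change from cells to nuclei differed between the Balb/c experiments for Pvalb and for Klhl3, by the test of the difference itself in edgeR. Over all genes, 47.1% of 13430 were called lower in this test and 7.44% higher, so a lower value was common. For Pvalb the log2 difference, female minus male, was -1.76 (SE 0.247, adjusted p = 9.46e-05), and it kept its sign and its call with RLE factors and in DESeq2. For Klhl3 it was -8.64 (adjusted p = 0.00143), which rests on 3 male cell libraries where the gene is listed at 0, so its size is no measure of a fold. Sex, age, chemistry and batch cannot be told apart between these experiments.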

How the results depend on the processing

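Of 1062 values of the 8 genes under other settings, 1000 kept their side of the threshold, 34 of them uncalled in both settings with a change of sign, 8 lost the call, 50 gained it and 4 reversed. Under library totals in place of TMM, Balb/c female cryopreservation gave 1 gene higher and 2 lower, with log2 fold changes of 0.0903 for Slc12a3, 0.0200 for Wnk1 and 0.27 for Stk39; warm cryopreservation gave 3 higher, warm methanol in DCT-like barcodes 1 higher, and Wnk4 in DCT-like female nuclei 0.26. With only genes above 0 in every library, fresh warm against cold gave 1 higher, warm cryopreservation 2 higher, DCT-like male nuclei 2 higher, the difference of nucleus effects 1 higher and 1 lower, and that of cryopreservation effects 2 higher. With the replicate block, which pairs C57BL/6J libraries by animal, warm cryopreservation gave 2 higher, its DCT-like sums 1 higher, and warm methanol in DCT-like sums 5 lower. At clustering resolution 1, DCT-like sums gave 1 higher and 1 lower in warm cryopreservation and 5 lower in warm methanol, and with no filter on low counts 1 lower in the former. Balb/c male cells had no DCT-like class at that resolution. The difference of nucleus effects gave 1 higher with RLE factors and 1 with DESeq2, and DESeq2 gave 3 higher for cryopreservation. The causes were not tested. With each library left out in turn, of 967 values of the 8 genes 882 kept their side of the threshold (26 uncalled in both with a change of sign), 57 lost the call, 22 gained it and 6 reversed. The counts ranged from 3 to 6 higher in bulk warm against cold, 0 to 2 lower in fresh warm against cold, 2 to 8 lower in cold cryopreservation, 0 to 1 higher and 1 to 2 lower in warm cryopreservation (0 to 1 lower in DCT-like sums), 0 to 1 higher in cold methanol, 1 to 3 lower in warm methanol, 2 to 6 lower in female cryopreservation and 1 to 4 lower in DCT-like SN_FANS_1x2000g nuclei. In DCT-like male nuclei the log2 fold change of Wnk1 ranged from -0.14 to 1.00 and that of Wnk4 from -0.10 to 1.11. Listed zeros of Klhl3 and Trpm6, few DCT-like barcodes in stored cells and 3 libraries per group limit these results.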
